A study of Mus musculus with 18 samples.

Results

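The genes described here are 45 genes of protein folding and quality control in the endoplasmic reticulum (ER), followed from naive B cells through germinal center B cells to bone marrow plasma cells. The members were every row of the deposited expression table whose gene symbol was on a list of ER chaperones and folding enzymes, sensors of the unfolded protein response (UPR) and components of ER-associated degradation (ERAD). All 45 listed genes were found, among 21761 genes in the table, and all 45 had an FPKM above 1 in at least 2 libraries. FPKM counts sequenced fragments per length of exon and per library total, so levels can be compared between genes.

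The mRNA-seq set held 18 libraries from sorted mouse B lineage cells, with 3 libraries in each of 6 groups made by 3 cell types and 2 genotypes. Naive B cells (nB; B220+ GL7- Fas-) came from lymph nodes of unimmunized mice. Germinal center B cells (GCB; B220+ GL7+ Fas+), which bound the protein phycoerythrin (PE), came from lymph nodes 30 days after PE immunization, with 2 mice pooled for each sample. Bone marrow plasma cells (BMPC), sorted by CD138 and not by PE binding, came from mice at the same day 30. Immunized mice had received PE in complete Freund's adjuvant under the skin, and the unimmunized nB mice had not. Dnmt3-deficient mice carried a B cell Cre allele with Dnmt3a fl/fl and Dnmt3b fl/fl, whereas their Dnmt3-sufficient controls had no Cre and carried the same floxed alleles of these de novo DNA methyltransferases, on the same mixed B6;129S4 background. All were young adults. Cre acts in B cells from early development onward, so deletion was not specific to activated cells or plasma cells. Each library started from 5000 sorted cells. By their labels, most nB and GCB libraries were female and most BMPC libraries male, in the same proportion in both genotypes.

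Proteins made for secretion fold inside the ER, where Hsp70 and Hsp90 chaperones hold unfolded chains, lectin chaperones bind their sugars, oxidoreductases form disulfide bonds and prolyl isomerases turn proline bonds. Chains that fail to fold are taken back to the cytosol and degraded, which is ERAD. The membrane sensors IRE1 (encoded by Ern1), PERK (Eif2ak3) and ATF6 respond to unfolded protein, and Xbp1, whose mRNA is spliced by IRE1, is known as a factor that plasma cells need for antibody secretion.

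Depth and markers of other cells differed between the cell types. The reads assigned to genes per nB library numbered 6692516 to 8987922 and per GCB library 7644544 to 8903872, but only 1355231 to 3803197 per BMPC library, so that low levels were measured least precisely in BMPC. All 6 naive markers fell in BMPC, and 6 of 7 plasma cell markers rose, Irf4 being the exception at 0.315 to 55.2 FPKM against 17.2 to 31 in nB. Summed FPKM of 8 neutrophil markers was 9.37 to 595 in BMPC and 0 in every nB and GCB library. Markers of erythroid cells summed to 149 to 2194 in BMPC, 0.468 to 218 in nB and 0.352 to 11.6 in GCB, and early B cell markers to 379 to 800.4, 182 to 275 and 263 to 378. T cell markers summed to 55.4 to 198, 26.8 to 75 and 0.569 to 5.56, and macrophage markers to 40.5 to 168, 1.7 to 73.9 and 11 to 21.2, with C1qa and Vcam1 at 0 in all BMPC libraries. The part of these other cells in the BMPC results was not tested. Only the catalytic exons were floxed, so whole-gene levels of Dnmt3a (0 to 5.18 FPKM) and Dnmt3b (0 to 9.29 FPKM) do not check the deletion.

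Several of these genes are known to respond to ER stress through a short promoter sequence, the ER stress response element (ERSE). It reads CCAAT, then 9 bases of any kind, then CCACG, and is the classic target of ATF6 and XBP1. Promoters from RefSeq (build GRCm38.p6; 250 bases before to 50 after a gene's start) were found for 38 of the 45 genes, and both strands were searched. A full ERSE was present for 10 of these 38 genes, against 37 of all 27025 genes with a promoter (0.137%). The 10 were Hspa5, Calr, Hsp90b1, Canx, Pdia6, Ero1lb, Derl3, Dnajc3, Creld2 and Syvn1. The bases around the element are shown for 6 of them, because their levels went different ways in plasma cells; capitals mark CCAAT and CCACG, or ATTGG and CGTGG where the element lies on the opposite strand. Hspa5 (chr2:34772010-34772058, + strand) and Pdia6 (chr12:17266476-17266524, + strand) did not pass the test in BMPC, Hsp90b1 (chr10:86705518-86705671, - strand), Canx (chr11:50325785-50325833, - strand) and Derl3 (chr10:75893227-75893275, + strand) rose, and Syvn1 (chr19:6046517-6046565, + strand) fell.
Hspa5: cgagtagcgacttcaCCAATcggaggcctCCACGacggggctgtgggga
Pdia6: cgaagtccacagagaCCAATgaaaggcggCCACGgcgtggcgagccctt
Hsp90b1: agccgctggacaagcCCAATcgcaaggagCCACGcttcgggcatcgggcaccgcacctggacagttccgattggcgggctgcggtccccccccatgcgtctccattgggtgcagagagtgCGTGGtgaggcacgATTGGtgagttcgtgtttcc
Canx: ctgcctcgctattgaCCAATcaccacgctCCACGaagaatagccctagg
Derl3: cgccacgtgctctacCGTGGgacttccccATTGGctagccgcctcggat
Syvn1: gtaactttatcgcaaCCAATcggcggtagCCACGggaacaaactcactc

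Hsp90b1 held 2 elements, in opposite directions, in the stretch shown. Of the 16 genes with a promoter that rose in BMPC relative to nB, 5 held a full ERSE, as did 4 of the 20 that did not pass and 1 of the 2 that fell. The related ERSE-II, ATTGG then 1 base then CCACG, occurred in Herpud1 and Dnajb11 among the members and in 12 of all 27025 genes (0.0444%). TGACGTGG, a core of the UPR element whose opposite strand contains CCACG, occurred in Txndc5 and Txndc11 and in 193 genes (0.714%). CCACG alone, which is part of both stress elements, stood in 32 of the 38 members' promoters and in 35.5% of all genes. A match describes the letters in this window and is not a measured binding site.

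Plasma cells had the highest total of these transcripts. Summed over the 45 genes, nB libraries held 2669 to 3408 FPKM, GCB libraries 2467 to 3274 and BMPC libraries 6727 to 10196. As shares of the reads assigned to genes, these were 0.731% to 0.898%, 0.661% to 0.865% and 1.58% to 2.43%. The range in BMPC lay above that of both other cell types. Immunoglobulin genes other than Jchain and Igll1 are not in these totals. The paper reports a far larger immunoglobulin share of mRNA in BMPC than in nB or GCB. With those reads counted, BMPC levels would be lower relative to the other cell types, for single genes as well. The part of this in the BMPC rises was not tested. The total followed cell type and tissue together: plasma cells were the only bone marrow cells, so the cell type, the tissue and the lower depth cannot be told apart. In the comparison with nB, immunization cannot be told apart from these either. Sex also differed in part, being mostly female in nB and GCB and mostly male in BMPC. In bulk RNA, fewer cells of a type and less RNA per cell cannot be told apart either.

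**Figure D1:**
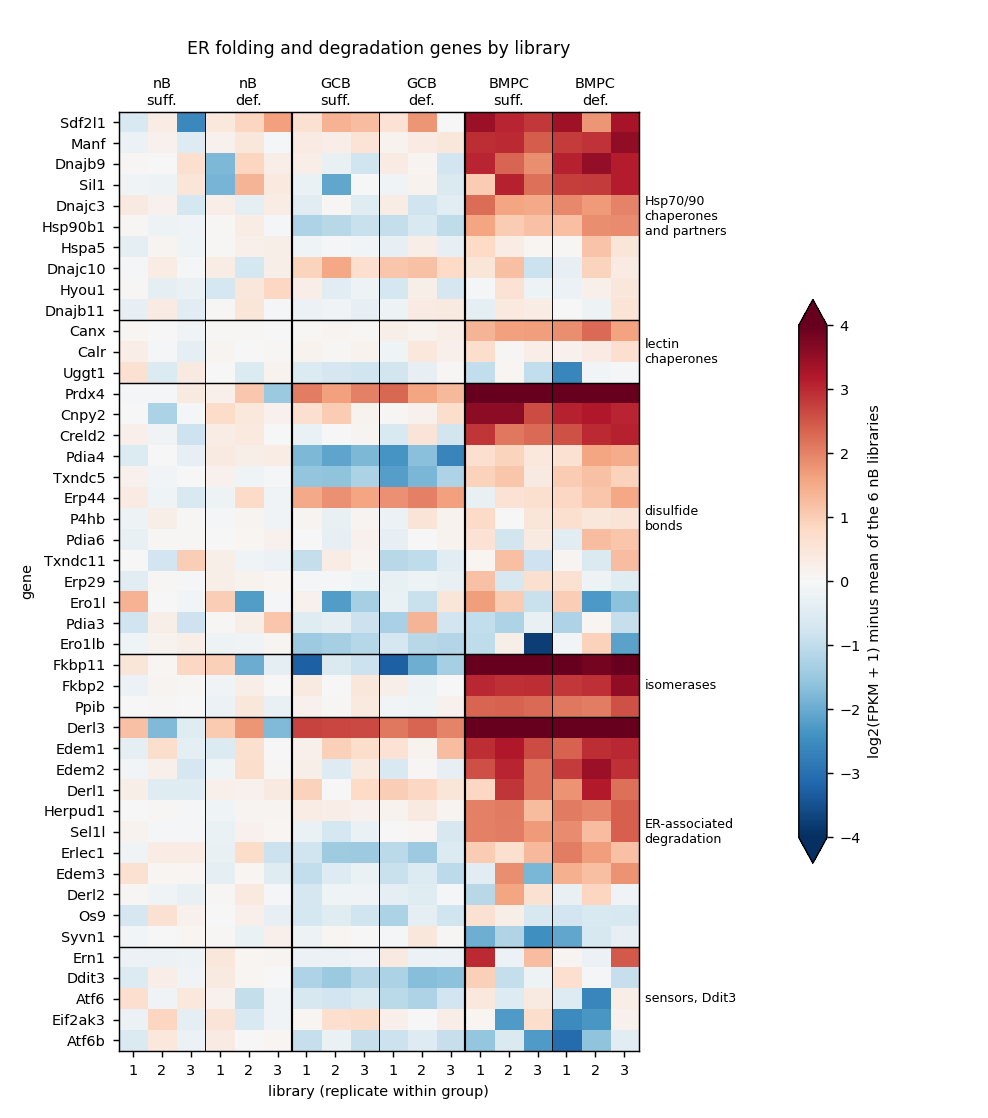
Each row is one of the 45 genes and each column one library. Colour gives log2(FPKM + 1) minus the mean of the 6 nB libraries, from blue (lower) to red (higher), limited to 4 on either side. The 6 BMPC columns are red for the isomerases, for most ERAD genes and for many chaperones, and close to white for Hspa5, Hyou1, Dnajb11 and Calr.

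Between BMPC and nB, 20 of the 45 genes rose and 2, Syvn1 and Atf6b, fell (limma on log2(FPKM + 1), mean of both genotypes, Benjamini-Hochberg adjusted p of at most 0.05, log2 difference of 1 or more in size). Over all 11522 genes tested, 9.43% rose and 39.3% fell. The median difference of the members was 0.91, and that of all genes tested was -0.79. The BMPC libraries spread more within a group than the others (median SD of log2(FPKM + 1) over genes 0.78 and 0.82, against 0.27 to 0.41). Under the other settings tried, fits to only the groups compared and with quality weights included, 20 to 22 members rose and 2 to 3 fell. By role, the rises were 3 of 3 prolyl isomerases, 7 of 11 ERAD genes and 6 of 10 Hsp70 and Hsp90 chaperones and partners. The other rises were 1 of 3 genes listed under lectin chaperones, the folding sensor Uggt1 among the 3. Of 13 genes listed under disulfide bond formation 3 rose, and of 5 sensors with Ddit3 0 did. Among the genes that did not pass, 6 had an adjusted p of at most 0.05 and a change under 1, namely Hspa5, Calr, Pdia4, P4hb, Txndc5 and Erp44.

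**Figure D2:**
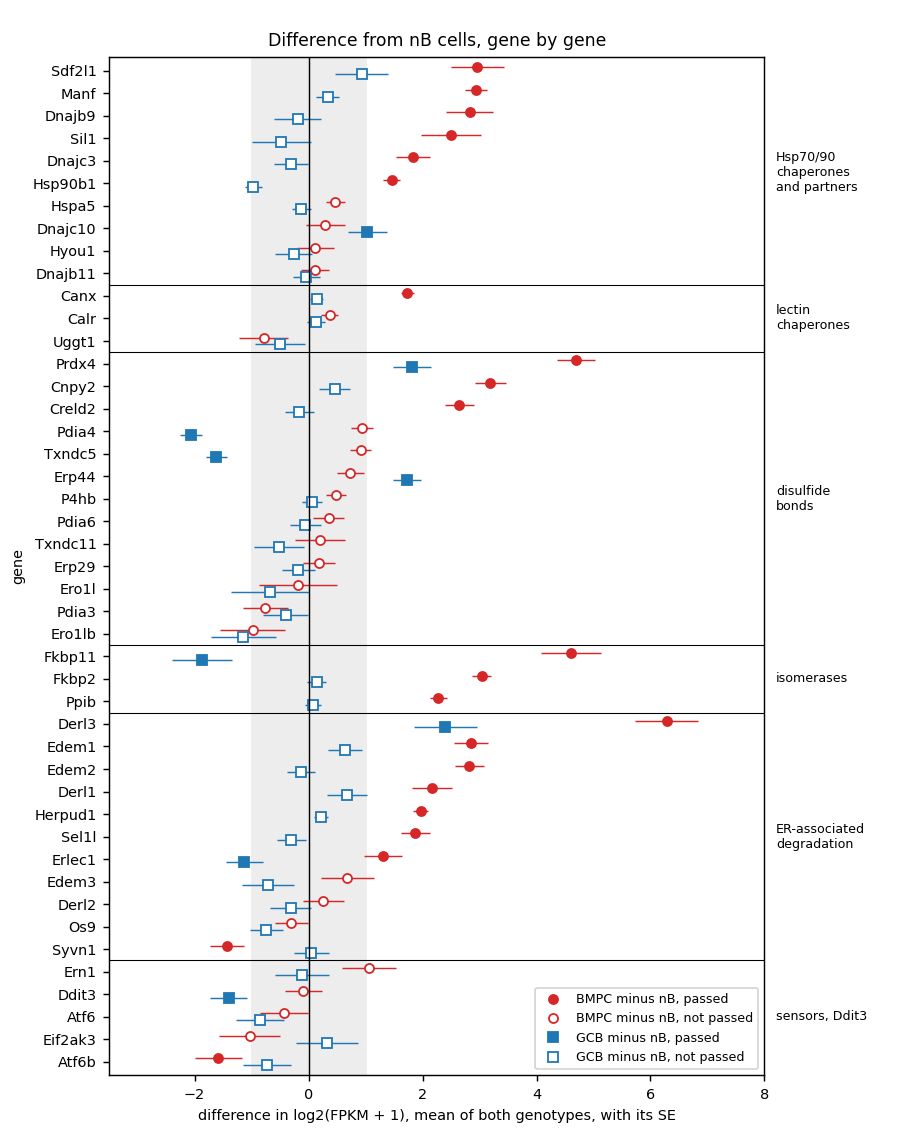
Points give the difference from nB in log2(FPKM + 1) for BMPC (red circles) and GCB (blue squares), as the mean of both genotypes with its standard error (SE). Filled symbols passed the test, open ones did not, and grey marks changes under 1. Derl3, Prdx4 and Fkbp11 lie farthest to the right for BMPC, whereas Pdia4 and Txndc5 lie to the left of 0 for GCB and to its right for BMPC.

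Among the chaperones, the GRP94 gene Hsp90b1 rose in BMPC whereas Hspa5, which encodes BiP, the central Hsp70 of the ER, changed by less than the threshold. Hsp90b1 stood at 279, 235 and 247 FPKM in the Dnmt3-sufficient and 279, 333 and 257 in the Dnmt3-deficient nB libraries, against 810.2, 548 and 608 FPKM in the Dnmt3-sufficient and 628, 986 and 996 in the Dnmt3-deficient BMPC libraries. Every BMPC library was above every nB library, with means 2.81-fold apart (log2 difference 1.45 ± 0.14, SE, adjusted p = 4.09e-07). Hspa5 stood at 362, 508 and 419.8 FPKM in the Dnmt3-sufficient and 486, 544 and 560.1 in the Dnmt3-deficient nB libraries, against 819, 582 and 503 FPKM in the Dnmt3-sufficient and 494, 1044 and 659.8 in the Dnmt3-deficient BMPC libraries. These ranges overlapped, and the means differed 1.42-fold (0.47 ± 0.17, adjusted p = 0.0259, under the minimum change). Hspa5 had the highest mean of all 45 genes in nB and GCB, and in BMPC it came after Herpud1 and Hsp90b1.

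Partners of BiP also divided. Sdf2l1, which works with the ER J-proteins, rose from a median of 15 FPKM (range 1.1 to 38) in nB to a median of 113 FPKM (range 41.3 to 136) in BMPC (2.96 ± 0.46, adjusted p = 5.42e-05). Its lowest BMPC library was just above its highest nB library. The other chaperone partners that rose were Manf (2.94), a regulator of BiP, the J-proteins Dnajb9 (2.83) and Dnajc3 (1.83), and Sil1 (2.5), a nucleotide exchange factor of BiP, all as log2 differences. Dnajb11, also a J-protein, had a median of 37.5 FPKM (range 26.9 to 53) in nB, a median of 33.1 FPKM (range 29.6 to 48.7) in GCB and a median of 41.9 FPKM (range 29.3 to 54.8) in BMPC, with the smallest difference of this role group (0.11 ± 0.24, adjusted p = 0.716). Hyou1, the large Hsp70 relative that serves BiP as an exchange factor, gave 0.12 ± 0.33, and Dnajc10, a J-protein that reduces disulfides, 0.29 ± 0.34; neither passed.

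Of the lectin chaperones, Canx passed and Calr did not. Canx, the membrane-bound calnexin, was 198, 187 and 170.2 FPKM in the Dnmt3-sufficient and 194, 192 and 184 in the Dnmt3-deficient nB libraries and 481, 580.3 and 593 FPKM in the Dnmt3-sufficient and 678, 901 and 579.5 in the Dnmt3-deficient BMPC libraries. All 6 BMPC values were above all nB values (3.39-fold, 1.73 ± 0.11, adjusted p = 2.92e-09). Calr, the soluble calreticulin, had a median of 191 FPKM (range 148 to 228) in nB and a median of 233 FPKM (range 196 to 305) in BMPC, with overlap (0.37 ± 0.15, adjusted p = 0.0477). The difference between these changes was not tested. Uggt1, the folding sensor that marks glycoproteins for another round of binding, was low throughout, with a median of 8.41 FPKM (range 5.17 to 12.6) in nB and a median of 5.43 FPKM (range 0.471 to 8.43) in BMPC (-0.79 ± 0.43, adjusted p = 0.133).

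The genes listed under disulfide bond formation held the rise of Prdx4, the second largest of all members, and 10 of the 23 genes that did not pass. Prdx4, the ER peroxiredoxin that uses hydrogen peroxide to make disulfides, stood at 12.3, 12.2 and 16.9 FPKM in the Dnmt3-sufficient and 14.8, 28 and 3.95 in the Dnmt3-deficient nB libraries, 56.6, 42 and 55.4 FPKM in the Dnmt3-sufficient and 67.3, 40.2 and 32.9 in the Dnmt3-deficient GCB libraries and 424, 302 and 326 FPKM in the Dnmt3-sufficient and 319, 465 and 344 in the Dnmt3-deficient BMPC libraries. The 3 cell types did not overlap, with BMPC 24.7-fold above nB (4.7 ± 0.33, adjusted p = 9.08e-09). Cnpy2 (3.19), which was placed on this list but is not a disulfide enzyme, and the disulfide isomerase Creld2 (2.65) also rose. Ero1lb, an oxidase that supplies disulfides to the isomerases, went from a median of 18.8 FPKM (range 16.4 to 22.6) in nB to a median of 13.1 FPKM (range 0.467 to 36.7) in BMPC, where its libraries spread over a wide range (-0.98 ± 0.57, adjusted p = 0.155). The abundant isomerases P4hb (0.48), Pdia6 (0.35) and Pdia3 (-0.76) did not pass, nor did Erp29 (0.18), Txndc11 (0.20) and Ero1l (-0.19), all as log2 differences.

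Pdia4, another isomerase of this family, followed a path that dipped in GCB. It was 154, 227 and 179 FPKM in the Dnmt3-sufficient and 295, 267 and 279 in the Dnmt3-deficient nB libraries, 65.3, 52.1 and 64 FPKM in the Dnmt3-sufficient and 43.4, 70.1 and 35.8 in the Dnmt3-deficient GCB libraries and 360.1, 417 and 302 FPKM in the Dnmt3-sufficient and 347, 686 and 633 in the Dnmt3-deficient BMPC libraries. Its BMPC values were all above its nB values (1.96-fold, 0.94 ± 0.19, adjusted p = 0.000706), a change just under the minimum of 1. It passed that minimum with median of ratios scaling.

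The 3 prolyl isomerases rose together. Fkbp11, an isomerase known from secretory cells, stood at 12.4, 9.05 and 15.9 FPKM in the Dnmt3-sufficient and 17.7, 1.43 and 6.55 in the Dnmt3-deficient nB libraries, against 329, 312 and 207 FPKM in the Dnmt3-sufficient and 265, 136 and 206 in the Dnmt3-deficient BMPC libraries. No libraries overlapped, and the means were 23.1-fold apart (4.61 ± 0.53, adjusted p = 2.17e-06). Fkbp2 rose from a median of 62.1 FPKM (range 51.9 to 74.8) to a median of 482 FPKM (range 448 to 733) (3.04 ± 0.16, adjusted p = 2.80e-10), and had the smallest adjusted p of all 45 genes. Ppib, cyclophilin B, rose from a median of 130.1 FPKM (range 105 to 176) to a median of 639.8 FPKM (range 540.3 to 759) (2.28 ± 0.14, adjusted p = 2.34e-09).

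ERAD held the largest rise of all members and one of the 2 falls. Derl3, a derlin of the channel through which misfolded chains leave the ER, stood at 6.6, 0 and 1.42 FPKM in the Dnmt3-sufficient and 5.99, 10.5 and 0 in the Dnmt3-deficient nB libraries, 20.8, 20.4 and 19.9 FPKM in the Dnmt3-sufficient and 13.5, 15.8 and 12.3 in the Dnmt3-deficient GCB libraries and 397, 256 and 112 FPKM in the Dnmt3-sufficient and 218, 293 and 441 in the Dnmt3-deficient BMPC libraries. Its 3 cell types did not overlap, and its BMPC mean was 70.2-fold its nB mean (6.28 ± 0.56, adjusted p = 1.11e-07). Syvn1, the ubiquitin ligase HRD1 that forms the core of the same complex, stood at 41.5, 45.7 and 47.9 FPKM in the Dnmt3-sufficient and 46.7, 36.8 and 51.9 in the Dnmt3-deficient nB libraries, 39.2, 47.2 and 44.9 FPKM in the Dnmt3-sufficient and 42.2, 61.8 and 46.1 in the Dnmt3-deficient GCB libraries and 10.9, 19 and 7.41 FPKM in the Dnmt3-sufficient and 9.85, 28.6 and 35.7 in the Dnmt3-deficient BMPC libraries. Every BMPC library was below every nB library and every GCB library (nB mean 2.43-fold the BMPC mean, -1.44 ± 0.30, adjusted p = 0.000776). Within genotypes, Syvn1 passed among Dnmt3-sufficient libraries at -1.87 ± 0.43 (adjusted p = 0.0025) and did not pass among Dnmt3-deficient ones at -1.01 ± 0.43 (adjusted p = 0.0708).

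Of the 10 ERAD members apart from Syvn1, 7 rose, Derl3 among them, and 3 did not pass. Herpud1, a scaffold of the complex, rose from a median of 290.4 FPKM (range 256 to 309.6) in nB to a median of 1203 FPKM (range 689 to 1505) in BMPC (4.01-fold, 1.96 ± 0.13, adjusted p = 3.18e-09), and had the highest mean of all members there. Sel1l, the adaptor that holds HRD1, rose by 1.87, Derl1 by 2.17 and the lectin Erlec1 by 1.31 on the log2 scale. The mannosidase-like proteins Edem1 and Edem2, which mark glycoproteins for disposal, rose by 2.85 and 2.82. Edem3 (0.68 ± 0.46), Derl2 (0.26 ± 0.36) and the lectin Os9 (-0.31 ± 0.29) did not pass.

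**Figure D3:**
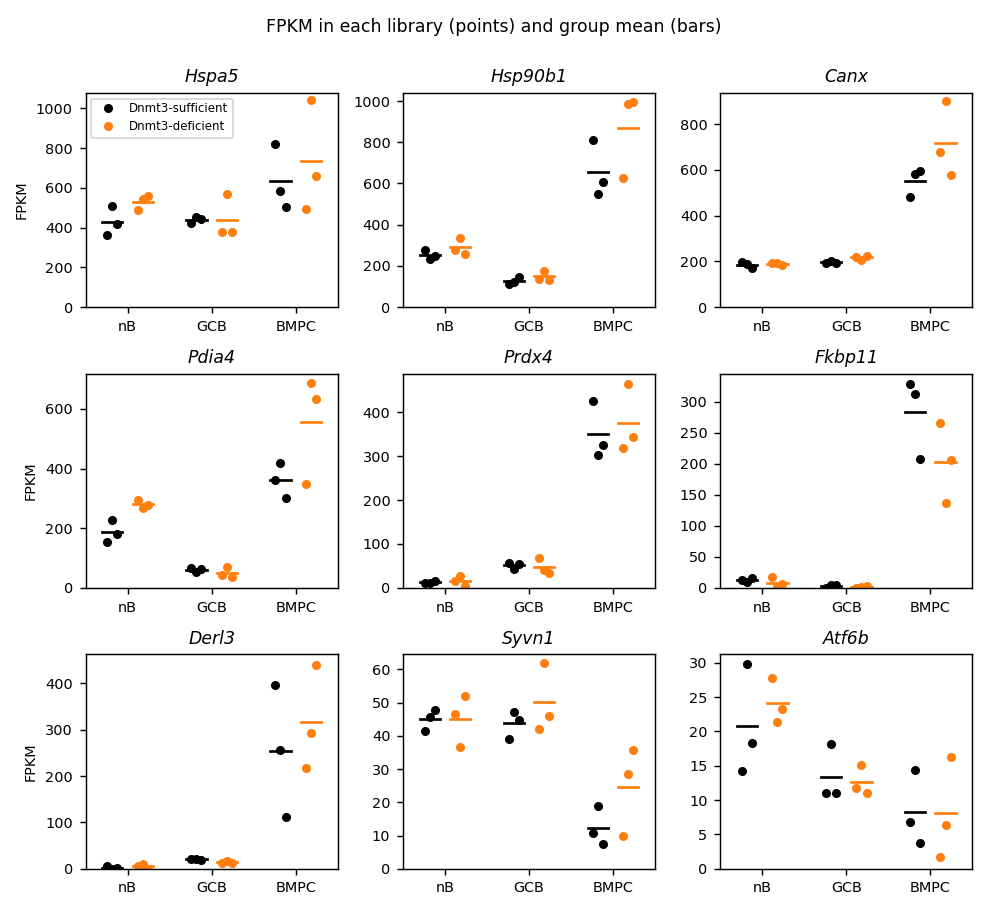
Points give FPKM in each library (black, Dnmt3-sufficient; orange, Dnmt3-deficient) and short bars the mean of 3 libraries, for 9 of the genes, on linear axes that start at 0. Prdx4, Fkbp11 and Derl3 have every BMPC point above every nB point, Pdia4 and Hsp90b1 are lowest in GCB, and Syvn1 and Atf6b are lowest in BMPC.

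Of the 5 genes in the sensor group, 0 passed upward and Atf6b fell. Ern1, encoding IRE1, was hardly detected in nB, at 0, 0 and 0.0244 FPKM in the Dnmt3-sufficient and 0.604, 0.25 and 0.258 in the Dnmt3-deficient libraries, which rested on 0 to 22 reads a library. In BMPC it stood at 8.29, 0 and 1.75 FPKM in the Dnmt3-sufficient and 0.269, 0 and 5.42 in the Dnmt3-deficient libraries, or 0 to 83 reads, and was at 0 in a library of each genotype (1.06 ± 0.47, adjusted p = 0.0687). Its difference ranged from 0.89 to 2.87 over the other settings, the latter with voom, and it passed upward with quality weights and without replicate 2 of either BMPC group. Atf6b, a relative of ATF6, fell from a median of 22.4 FPKM (range 14.2 to 29.8) in nB to a median of 6.63 FPKM (range 1.69 to 16.2) in BMPC, with overlap between single libraries (-1.58 ± 0.42, adjusted p = 0.00419). Atf6 had a median of 12 FPKM (range 5.65 to 19.2) in nB and a median of 11.2 FPKM (range 1.09 to 16.2) in BMPC (-0.44 ± 0.42, adjusted p = 0.396). Eif2ak3, encoding PERK, had a median of 7.14 FPKM (range 5.12 to 15.9) and a median of 4.85 FPKM (range 0.582 to 14.3), and its BMPC libraries fell into 3 near 1 FPKM or below and 3 above 8 (-1.03 ± 0.54, adjusted p = 0.112). Ddit3, the CHOP gene induced by prolonged stress, had a median of 49.6 FPKM (range 33.3 to 62.1) in nB and a median of 43.9 FPKM (range 24.8 to 94.1) in BMPC (-0.09 ± 0.32, adjusted p = 0.838), and the sign of this small difference turned under some settings.

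The factors that act below the sensors were read from a list of 20 other UPR signalling genes, of which 4 rose and 5 fell in BMPC, beside 9.43% and 39.3% of all genes tested (median -0.31, beside -0.79). Xbp1, the factor activated by IRE1 and also one of the plasma cell markers used here, had a median of 24.7 FPKM (range 7.91 to 42.9) in nB, a median of 14.6 FPKM (range 10.5 to 27.4) in GCB and a median of 727 FPKM (range 559 to 835) in BMPC (4.9 ± 0.30, adjusted p = 1.45e-09). These values are of the whole gene and do not tell spliced from unspliced Xbp1. Chac1, a target of the PERK branch, was listed at 0 in every nB library and at 1.93 to 48 FPKM in BMPC, and Creb3l2 and Eif2s1 also rose. Atf4, the factor translated after PERK acts, had a median of 106 FPKM (range 70.4 to 124) in nB and a median of 94.9 FPKM (range 71.2 to 189.9) in BMPC (0.08 ± 0.21, adjusted p = 0.78). Mbtps1, the protease that cuts ATF6, fell from a median of 19.3 FPKM (range 13.4 to 25.7) to a median of 5.14 FPKM (range 0.394 to 14.6) (-1.86 ± 0.46, adjusted p = 0.00275), and Traf2, an adaptor of IRE1, from a median of 54.9 FPKM (range 47.7 to 98.8) to a median of 13.4 FPKM (range 0 to 28.2) (-3.3 ± 0.77, adjusted p = 0.00184). Ppp1r15a, Ppp1r15b and Map3k5 were the other falls. In GCB relative to nB, Ppp1r15a and Eif2s1 rose and 0 genes of the list fell.

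Of 24 other ERAD genes, 4 rose and 2 fell in BMPC, with the same background of 9.43% and 39.3% (median -0.41, beside -0.79). Selk, a small selenoprotein of the ER membrane, rose from a median of 198 FPKM (range 171 to 239) to a median of 1146 FPKM (range 884 to 1579) (2.49 ± 0.11, adjusted p = 3.90e-11), without overlap. Ube2j1, a ubiquitin-conjugating enzyme that works with HRD1, rose from a median of 16.9 FPKM (range 9.5 to 22) to a median of 62.8 FPKM (range 51.7 to 130.1) (2.21 ± 0.29, adjusted p = 8.06e-06) and also rose in GCB (1.49 ± 0.29, adjusted p = 0.000792), where 1 gene of this list rose and 1 fell. The other rises in BMPC were Vimp and Svip. The falls there were March6, a ubiquitin ligase (-1.75 ± 0.44, adjusted p = 0.00305), and Nploc4, a cofactor of the p97 ATPase (-1.01 ± 0.41, adjusted p = 0.0461).

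Within each genotype the BMPC against nB comparison gave 19 rises and 1 fall among Dnmt3-sufficient libraries (background 9.74% and 27.6%) and 23 rises and 1 fall among Dnmt3-deficient libraries (background 6.85% and 30.6%). Among the 20 genes that rose over both genotypes, 19 passed in the Dnmt3-sufficient libraries, Erlec1 being the exception, and all 20 in the Dnmt3-deficient ones. Edem3, Erp44 and Txndc5 passed in the Dnmt3-deficient libraries alone, and whether the change differs between genotypes was tested by the interaction given with the genotype comparison.

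In GCB relative to nB, members moved in both directions, at about the shares of all genes. In GCB, 4 genes rose (Derl3, Prdx4, Erp44 and Dnajc10) and 5 fell (Pdia4, Fkbp11, Txndc5, Ddit3 and Erlec1), with the same test. Over all genes tested, 9.47% rose and 12.0% fell. The median difference was -0.16 for the members and -0.13 for all genes. Both comparisons with nB share the nB libraries, and the genes described for GCB were chosen because they passed, or nearly passed, in GCB.

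Erp44, which retains and returns ER proteins from later compartments, was 54.2, 38.5 and 27.9 FPKM in the Dnmt3-sufficient and 37.6, 74.7 and 39.3 in the Dnmt3-deficient nB libraries, 124, 155 and 129.6 FPKM in the Dnmt3-sufficient and 156, 179 and 136 in the Dnmt3-deficient GCB libraries and 35.3, 65.1 and 67.9 FPKM in the Dnmt3-sufficient and 77, 93.9 and 128 in the Dnmt3-deficient BMPC libraries. Its mean was highest in GCB, with every GCB library above every nB library (3.24-fold, 1.73 ± 0.24, adjusted p = 3.81e-05). Dnajc10 rose from a median of 22.9 FPKM (range 12.7 to 26.3) in nB to a median of 43.8 FPKM (range 34.1 to 63.4) in GCB (1.03 ± 0.34, adjusted p = 0.0352). Derl3 (2.4 ± 0.56, adjusted p = 0.00366) and Prdx4 (1.81 ± 0.33, adjusted p = 0.00057) stood between nB and BMPC.

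Pdia4 had the largest fall in GCB, 4.23-fold by its means (-2.06 ± 0.19, adjusted p = 5.46e-07). Txndc5, an isomerase known from plasma cells and endothelium, had a median of 115 FPKM (range 105 to 133) in nB, a median of 38.2 FPKM (range 24.9 to 49.9) in GCB and a median of 231 FPKM (range 152 to 266) in BMPC, so its GCB libraries were all below its nB libraries (-1.62 ± 0.19, adjusted p = 5.34e-06). Ddit3 went from a median of 49.6 FPKM (range 33.3 to 62.1) in nB to a median of 18.3 FPKM (range 14.3 to 21.4) in GCB (-1.4 ± 0.32, adjusted p = 0.00346). Fkbp11 was at 0 in 2 GCB libraries, one of each genotype, and at most 5.48 FPKM in the others (-1.87 ± 0.53, adjusted p = 0.0137), and Erlec1 gave -1.13 ± 0.33 (adjusted p = 0.0157). Hsp90b1 was 114, 124 and 147 FPKM in the Dnmt3-sufficient and 138, 177 and 133 in the Dnmt3-deficient GCB libraries, all below nB, with a change just under the minimum (-0.97 ± 0.14, adjusted p = 7.21e-05).

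Between BMPC and GCB, 24 genes rose and 2 fell, whereas 7.72% and 33.7% of all genes did. The median difference was 1.39, beside -0.66 over all genes tested. Fkbp11 had the largest rise (6.48 ± 0.53, adjusted p = 5.71e-08). Pdia4 (3.0 ± 0.19) and Txndc5 (2.53 ± 0.19) passed in this comparison, as did Ddit3 (1.31 ± 0.32, adjusted p = 0.00325). The falls were Syvn1 (-1.49 ± 0.30, adjusted p = 0.000728) and Eif2ak3 (-1.35 ± 0.54, adjusted p = 0.0466), and the latter did not hold under several settings.

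The genotype comparison asked whether loss of Dnmt3a and Dnmt3b altered these genes in any of the cell types. With limma, 0 of the 45 genes passed in nB, 0 in GCB and 0 in BMPC, where 0.0521%, 0% and 3.98% of all genes tested did. The 3.98%, 154 genes higher and 305 lower, became 193 higher and 239 lower after median of ratios scaling, 9 and 9 when libraries were weighted by quality, and 0 when only the BMPC libraries were fitted. Leaving out 1 BMPC library gave 211 to 275 higher and 328 to 654 lower, with the 275 and the 654 without Dnmt3-deficient replicate 1. At an unadjusted p of at most 0.05 there were 3, 0 and 3 members, beside 312, 124 and 2342 of the 11522 genes tested, and voom on recovered reads also called 0 members in each cell type. The SE of a genotype difference ranged from 0.16 to 0.97 over the members (median 0.43, log2 scale). This fit shares 1 spread over the cell types, so the SE tends to understate the spread in BMPC and to overstate it in nB and GCB. The test was therefore strict in nB and GCB, where even the largest difference, 1.93 ± 0.65 for Sdf2l1 in nB, did not pass. In fits to only the groups compared, 592 genes in nB and 724 in GCB reached an unadjusted p under 0.05. Among them 0 genes passed, and thus 0 members. The lowest and highest differences were -0.91 and 1.93 among nB libraries, -0.67 and 0.91 among GCB libraries, and -1.60 and 1.59 among BMPC libraries. The median difference was 0.06, -0.03 and 0.11, beside 0.00 in nB, 0.00 in GCB and -0.05 in BMPC over all genes tested. Member sums in nB were 2669 to 3047 FPKM in Dnmt3-sufficient and 3081 to 3408 in Dnmt3-deficient libraries, without overlap. They overlapped in GCB (2702 to 2798 and 2467 to 3274) and BMPC (6727 to 8954 and 7787 to 10196). By role, Dnmt3-deficient sums all lay above in nB for disulfide bond formation and Hsp70 and Hsp90 chaperones, and in BMPC for lectin chaperones. In GCB they lay below for sensors with Ddit3. Other role sums overlapped, and none was tested.

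The smallest p-values in BMPC belonged to Erp44, Edem3 and Canx. Erp44 stood at 35.3, 65.1 and 67.9 FPKM in the Dnmt3-sufficient and 77, 93.9 and 128 in the Dnmt3-deficient BMPC libraries, without overlap between genotypes (0.84 ± 0.34, unadjusted p = 0.0247, limma adjusted p = 0.165). Edem3 stood at 1.66, 11.9 and 0 FPKM in the Dnmt3-sufficient and 8.5, 7.1 and 11.3 in the Dnmt3-deficient libraries, where the Dnmt3-sufficient values spread from 0 upward and covered all the Dnmt3-deficient ones (1.59 ± 0.65, limma adjusted p = 0.17). Canx, whose BMPC values are given above, differed by 0.36 ± 0.16 (limma adjusted p = 0.199), and no genotype difference of these 3 genes passed. The Edem3 difference was 3.82 with voom and 0.74 to 2.59 when single libraries were left out, and it passed without Dnmt3-sufficient replicate 2. For Hspa5 the genotype difference in BMPC was 0.17 ± 0.24, for Hsp90b1 0.40 ± 0.20, for Derl3 0.43 ± 0.79 and for Herpud1 0.36 ± 0.18. Marker sums also differed between the genotypes in BMPC without overlap: plasma cell markers were 18915 to 29493 FPKM in the Dnmt3-sufficient and 33952 to 51504 in the Dnmt3-deficient libraries, erythroid markers 1160.0 to 2194 and 149 to 797, and macrophage markers 40.5 to 87.7 and 103 to 168. Jchain alone held 3.4% to 9.8% of BMPC reads and the 7 plasma cell markers together 3.73% to 10.4%, so their sum mainly reflects Jchain. Singly, 0 of these 7 markers passed between genotypes in BMPC, with 6 differences positive and 1 negative (-2.45). The part of these marker differences in the genotype values was not tested.

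In nB, the unadjusted p was at most 0.05 for Sdf2l1, Cnpy2 and Pdia4, which were named after their values were seen. Sdf2l1 stood at 7.15, 14.4 and 1.1 FPKM in the Dnmt3-sufficient and 15.7, 21.6 and 38 in the Dnmt3-deficient nB libraries, without overlap (1.93 ± 0.65, unadjusted p = 0.00908, limma adjusted p = 0.996). Pdia4 also did not overlap between genotypes in nB (0.60 ± 0.28, limma adjusted p = 1). Summed markers of erythroid cells also differed there, at 0.468 to 1.42 FPKM in the Dnmt3-sufficient and 22.5 to 218 FPKM in the Dnmt3-deficient nB libraries, and their part in these values was not tested.

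**Figure D4:**
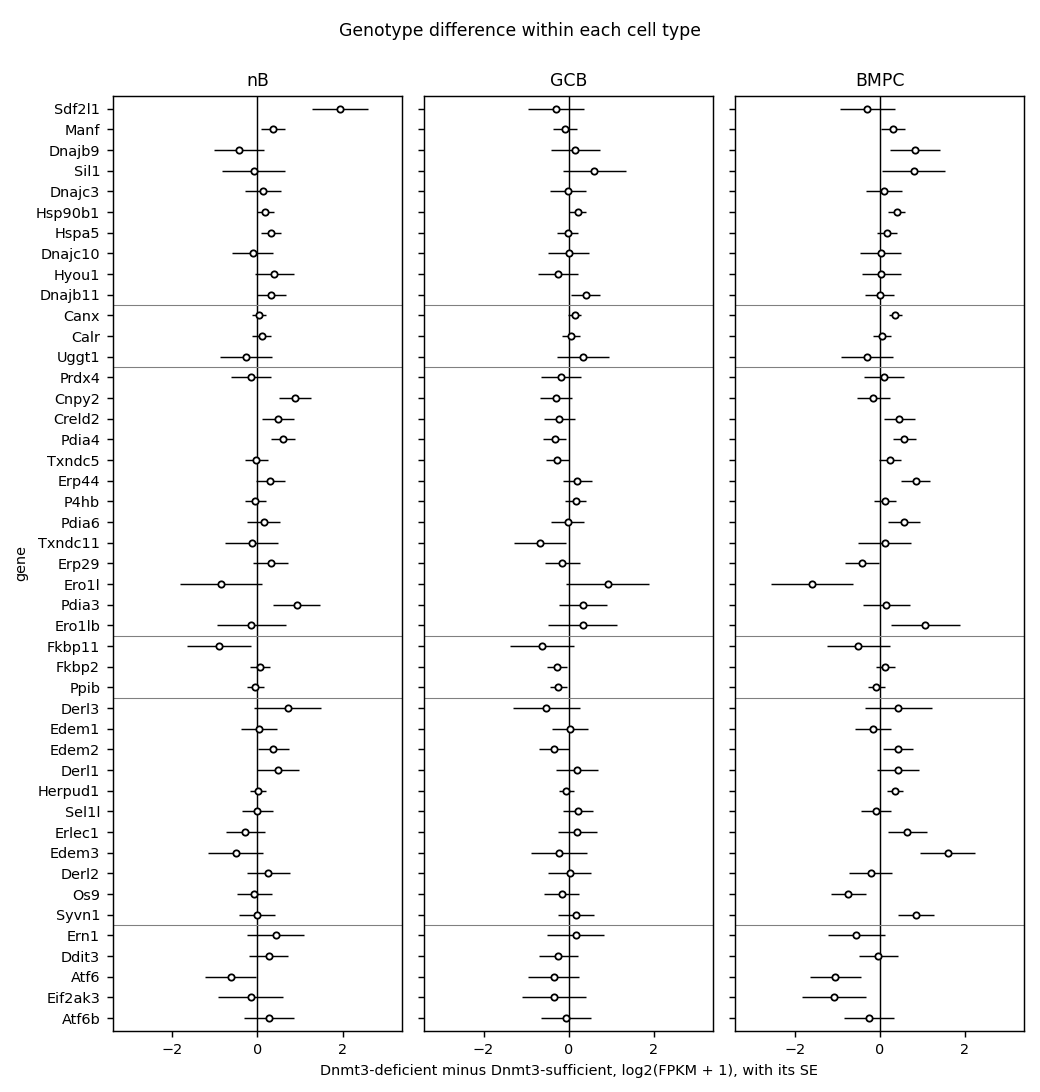
Points give Dnmt3-deficient minus Dnmt3-sufficient in log2(FPKM + 1) with the SE, for the 45 genes in each cell type; no point passed the test. The points lie closest to 0 in GCB and spread most in BMPC.

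The change from nB to each other cell type was also compared between genotypes by an interaction term. For BMPC against nB, 0 of 45 genes passed, against 0.555% of all genes (limma; 2 members and 1373 of the 11522 genes at an unadjusted p of at most 0.05, and 0 members with voom). For GCB against nB, 0 passed, against 0% of all genes (3 members and 204 genes at an unadjusted p of at most 0.05, and 0 members with voom). The 0.555%, 19 genes higher and 45 lower, became 9 and 17 in a fit to only the groups compared. When 1 BMPC library was left out, 55 to 84 were higher and 97 to 236 lower, with the 84 and the 236 without Dnmt3-deficient replicate 1. Sdf2l1 had the smallest p of the members in both (-2.23 ± 0.93 and -2.24 ± 0.93, limma adjusted p = 0.353 and adjusted p = 1).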

How the data were processed

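Expression was analysed from 18 libraries in 6 groups of 3, grouped by their labels. The authors mapped reads to mm9 with Tophat, counted them over UCSC KnownGenes exons with summarizeOverlaps and deposited FPKM values for 21761 genes, scaled by exon length and library total. The submitters' processing notes also name Picard, R 3.2.2 and edgeR 3.12.1. Whether counting used strand is not given in the sources used here, so overlapping and antisense genes are uncertain. Deposited fold changes and FDR values of 9 comparisons by the authors were not used. Immunoglobulin genes other than Jchain and Igll1 are not in the library totals used here.

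Members and lists were chosen with earlier results of these data known. Differences were tested with limma 3.58.1 (R 4.3.3; lmFit and eBayes with trend, two-sided) of log2-transformed FPKM with a pseudocount of 1, fitting a mean for each group and a shared spread per gene to all 18 libraries together. Benjamini-Hochberg adjustment covered 11522 genes, those that exceeded 1 FPKM in 2 or more libraries, and passing meant an adjusted p of at most 0.05 with a log2 difference of 1 or more in size. Differences on this scale understate the change of low genes. Errors are the SE of that fit. Contrasts between cell types take the mean of both genotypes. Per the study, nB and BMPC libraries came from separate mice and GCB libraries from pools of 2 mice.

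FPKM times exon length came out as whole multiples of 1 read for 100% of values (tolerance 0.01), and the recovered reads gave the depths and the voom alternative. Amplified reads are not independent molecules, so read numbers cover counting error only. No 2 libraries of a group agreed within sampling noise (chi-square per degree of freedom at least 22.4). The code was tested on simulated counts. Changed genes were mostly recovered, but with the wider spread of BMPC libraries some unchanged genes passed in contrasts that involve BMPC, so p-values there are too small. Fits to only the groups compared and with a quality weight per library were therefore read beside them. The count model of the study was not used as the main test. The deposited unit was FPKM, and a model on the recovered reads was run only as the voom alternative.

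Values were given, in each of 6 role groups, for the 2 members with the highest mean in BMPC and those with the largest and smallest BMPC minus nB difference, for the sensors and Ddit3, for members that passed between genotypes, and for the 3 with the smallest p between genotypes in BMPC. In pathway lists the 2 largest rises and falls that passed were named, with Xbp1 and Atf4. Other members with values were chosen after their values were seen. Same-coded GCB libraries of both genotypes did not deviate together (r across genes -8.06e-05, -0.0171 and 0.0257), so they were not treated as pairs. Alternatives were voom, quality weights for libraries, sex as a covariate, only the groups compared, each library left out, an adjusted p of 0.01, a smaller pseudocount (0.1), scaling by median of ratios, removal of Jchain before rescaling, and either no filter or a stricter one (over 3 FPKM in 3 libraries or more). Promoters were searched with Python 3.11.15.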

Additional observations from a re-analysis of the deposited data

How the results depend on the processing

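Over all settings, 20 to 22 members passed as higher in BMPC than in nB and 2 to 3 as lower, 3 to 4 as higher in GCB than in nB and 3 to 6 as lower, and 23 to 25 as higher in BMPC than in GCB. The members lower in GCB than nB, 5 in the test described, were 3 at an adjusted p of 0.01. The members lower in BMPC than GCB, 2 in the test described, were 1 in a fit to only the groups compared, with median of ratios scaling, without a filter, rescaled without Jchain and at an adjusted p of 0.01, 3 with a pseudocount of 0.1, and 1 to 4 when single libraries were left out (4 without BMPC Dnmt3-deficient replicate 3). Between genotypes in BMPC, leaving out single libraries gave 0 to 2 members, 2 without BMPC Dnmt3-deficient replicate 1 and 1 without BMPC Dnmt3-sufficient replicate 2, where Edem3 passed at 2.59. For the difference between genotypes in the BMPC against nB change it gave 0 to 1, the 1 without BMPC Dnmt3-sufficient replicate 2. The cause of these changes was not tested.

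The Ddit3 difference between BMPC and nB turned from -0.09 to 0.0785 with median of ratios scaling and to 0.00065 without Jchain, and ranged from -0.34 to 0.13 when single libraries were left out. The Edem3 difference turned from 0.68 to -0.01 (-0.0127) with voom. Pdia4 in BMPC minus nB passed with median of ratios scaling (1.11), without Jchain (1.03) and without BMPC Dnmt3-deficient replicate 1 (1.09) or nB Dnmt3-sufficient replicate 2 (1.01). Ern1 (2.87 with voom, not passed) passed with quality weights (1.16) and without BMPC Dnmt3-deficient replicate 2 (1.31) or Dnmt3-sufficient replicate 2 (1.44). Eif2ak3 passed as lower without BMPC replicate 3 of the Dnmt3-deficient (-1.47) or the Dnmt3-sufficient group (-1.33), Ero1lb with voom (-1.44) and without BMPC Dnmt3-sufficient replicate 2 (-1.42), and Edem3 as higher without BMPC Dnmt3-sufficient replicate 3 (1.1). Median of ratios scaling moved the median of all genes from -0.79 to -0.69 for BMPC against nB and from -0.66 to -0.52 for BMPC against GCB. With the replicate block of the codes shared in GCB, fitted to the GCB libraries alone, 0 members and 0 genes passed between genotypes, as without it. The block gave 717 genes at an unadjusted p of at most 0.05, beside 724 in the fit to only the GCB libraries without it. The lower depth and wider spread of BMPC libraries limit what could be detected there.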

Other observations

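A further 35 genes of ER folding were listed, of which 26 passed the filter on low values; 3 rose and 9 fell in BMPC relative to nB (median -0.62, beside -0.79 over all genes tested). These counts were near the shares of all genes tested, 9.43% and 39.3%. Hspa13, an Hsp70 relative of microsomes, rose from a median of 2.66 FPKM (range 0.314 to 4.12) in nB to a median of 19.6 FPKM (range 9.86 to 29.5) in BMPC (2.76 ± 0.42, limma adjusted p = 3.83e-05), without overlap. Pdia2, an isomerase best known from pancreas, was at 0 to 0.076 FPKM in nB, 0 in every GCB library and 0 to 40.7 in BMPC, and Sdf2, the relative of Sdf2l1, also rose. Txndc16 fell from a median of 28.6 FPKM (range 21.9 to 33.5) to a median of 1.3 FPKM (range 0 to 12.3) (-3.43 ± 0.54, limma adjusted p = 5.70e-05), and Tmx3, a membrane-bound oxidoreductase, from a median of 16.1 FPKM (range 11.7 to 20.2) to a median of 1.05 FPKM (range 0 to 5.06) (-3.07 ± 0.39, limma adjusted p = 6.91e-06). Both genes were at 0 in at least 1 BMPC library, where depth was lowest. The other falls were Tmx2, Txndc15, Dnajb12, Dnajc18, Cnpy3, Creld1 and Ganab. In GCB relative to nB, 0 of the 26 rose and Sdf2 fell. Between genotypes in BMPC, where 3.98% of all genes passed, Dnajc18 passed as lower and was the only gene of the 3 pathway lists to do so. It did not pass in a fit to only the BMPC libraries, in which 0 genes did.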
